A study of Homo sapiens with 18 samples.

Results

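The 10 genes described here form the transcriptional end of the Hippo pathway and its feedback. They are the coactivators YAP1 and WWTR1 (the gene of TAZ), the DNA-binding factors TEAD1 and TEAD4, the target genes CCN1, CCN2 and ANKRD1, the inhibitors AMOTL2 and LATS2, and the LIM domain protein AJUBA. They were chosen by name, as the rows of the deposited expression table that carry these symbols, and the rule itself uses no measured value. Earlier results of these data were known when these genes and the further lists below were chosen. Their shares set against all tested genes are thus descriptive. All 10 were found among the 40266 gene symbols of the table. All 10 also passed the filter of at least 1 TPM in at least 3 libraries, which left 16093 genes to be tested. TPM is a level of transcripts corrected for gene length and for the total of the library. Fold changes are differences of group means of log2(TPM + 1), a scale that understates the change of genes near 1 TPM. A difference was called when the adjusted p of limma, corrected by the Benjamini-Hochberg method over all 16093 genes, was under 0.05.

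RNA was sequenced from 18 libraries of untreated cells of 2 human pancreatic ductal adenocarcinoma (PDAC) lines. Panc1 stems from a primary tumor and has mesenchymal features, and Panc89 stems from a lymph node metastasis and is more epithelial. Each line was present as the heterogeneous parental culture and as a Holoclone line and a Paraclone line, which were grown from cells of that culture by single-cell cloning. Holoclone colonies are compact and are thought to hold cells with high self-renewal, whereas Paraclone colonies are loose and are thought to hold more differentiated cells. The 6 groups were thus parental Panc1, Panc1 Holoclone, Panc1 Paraclone, parental Panc89, Panc89 Holoclone and Panc89 Paraclone, with 3 libraries in each, made from RNA of 3 cell passages. Each Holoclone and Paraclone group is 1 cloned line. The p-values therefore measure the spread between passages and not the spread between different clones of the same kind.

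The Hippo pathway is a chain of kinases that restrains growth when cells are dense, rounded or polarized. Active LATS kinases phosphorylate YAP and TAZ, which then stay in the cytoplasm or are degraded. Without this phosphorylation YAP and TAZ enter the nucleus and bind TEAD factors, which recognise the DNA motif GGAATG. The complex switches on matrix-associated and growth genes such as CCN1, CCN2 and ANKRD1, and also AMOTL2 and LATS2, which restrain YAP and TAZ in turn. In pancreatic cancer YAP is known as a driver of growth. The pathway acts largely through phosphorylation and location of proteins, which RNA levels do not measure.

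The promoters of CCN2 and ANKRD1 are shown because both genes are textbook targets of TEAD and their 250 bases before the start site overlap no annotated exon. The sequences are those of RefSeq on GRCh38.p14, read 5′ to 3′ on the minus strand that carries each gene. Capitals mark each match to GGAATG, which was searched on both strands as GGAATG and CATTCC. The window of CCN2 lies at chr6:131951373-131951622 and that of ANKRD1 at chr10:90921088-90921337.
CCN2: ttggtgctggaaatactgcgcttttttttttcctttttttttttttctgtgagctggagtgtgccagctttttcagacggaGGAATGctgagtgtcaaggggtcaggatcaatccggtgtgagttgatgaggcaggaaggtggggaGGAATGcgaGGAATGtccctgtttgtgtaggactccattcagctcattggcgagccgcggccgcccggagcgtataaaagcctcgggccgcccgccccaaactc
ANKRD1: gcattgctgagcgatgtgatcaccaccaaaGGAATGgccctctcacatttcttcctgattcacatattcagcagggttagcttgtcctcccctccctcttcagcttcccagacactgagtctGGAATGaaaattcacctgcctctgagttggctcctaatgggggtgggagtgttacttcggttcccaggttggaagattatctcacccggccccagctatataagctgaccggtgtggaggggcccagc
The CCN2 window held 3 matches, whose bases nearest the 5′ end lie at positions -169, -104 and -95 from the start site. The ANKRD1 window held 2 matches, at positions -220 and -128. Of 35116 RefSeq windows of the same length, 11.9% held at least 1 match, 0.94% at least 2 and 0.0826% at least 3. RefSeq promoter entries were matched for 7 of the 10 genes, and not for TEAD1, TEAD4 and CCN1. The window of LATS2, which also overlaps no exon, held 0 matches. The windows of the other 4 genes overlap annotated exons and are not shown. They held 1 match in YAP1, 0 in both windows of WWTR1, and 1 in 1 of the 2 windows each of AMOTL2 and AJUBA. A match is a run of letters in the window and not a measured binding site.

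The libraries were similar but not equal in the measures the table gives. Each held between 12932 and 14199 genes at 1 TPM or more, and mitochondrially encoded genes took between 5.62% and 9.44% of the TPM. Panc89 Holoclone replicate 1 was the highest of its 3 libraries in 58.5% of all tested genes, against 12.6% for replicate 2. Libraries of the same group correlated with each other at a Pearson r of 0.954 to 0.992 across genes of log2(TPM + 1). The depth of the libraries is unknown, since TPM do not keep it, and no counting error can be given. Epithelial markers summed to between 2603 and 6862 TPM in all libraries, carried in Panc1 by KRT8, KRT18 and KRT19. The epithelial markers CDH1, EPCAM and KRT7 differed between the lines, with CDH1 at 0.671 to 3.51 TPM in Panc1 and 73.3 to 107 TPM in Panc89, EPCAM at 1.28 to 31.5 against 165 to 311 TPM, and KRT7 at 8.52 to 19.6 against 988 to 2773 TPM. Mesenchymal markers summed to between 2050 and 5059 TPM in the Panc1 groups and to between 5.36 and 31.6 TPM in the Panc89 groups, and nearly all of the Panc1 sum was VIM. ZEB1 also was higher in Panc1, at 12.7 to 18.1 against at most 3.00 TPM. CDH2 overlapped between the lines, at 1.09 to 16.3 TPM in Panc1 and 2.42 to 11.7 TPM in Panc89, and FN1 was lower in Panc1, at 0.697 TPM or less against 0.991 to 23.8 TPM. Immune markers summed to between 52.4 and 151 TPM in Panc1 and to between 9.44 and 63.2 TPM in Panc89, nearly all of it CD68, which was the only one of the 5 that averaged 1 TPM or more in a group. Of the 6 fibroblast markers, which summed to between 1.43 and 27.4 TPM, only COL1A1 did, and acinar markers summed to at most 1.56 TPM. Endothelial markers summed to between 55.2 and 69.1 TPM in parental Panc89 and to at most 8.90 TPM elsewhere. The part of these markers in the results was not tested.

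YAP1 (chr11:102110447-102233424 on GRCh38, GENCODE 44), the best known coactivator at the end of the pathway, was expressed at a similar order of magnitude in all cell variants. Parental Panc1 had 121, 115 and 109 TPM in replicates 1, 2 and 3, the order used for all values that follow. YAP1 reached 153, 151 and 150 TPM in Panc1 Holoclone cells and 123, 96.8 and 98.1 TPM in Panc1 Paraclone cells. Parental Panc89 had 83.4, 76.9 and 83.6 TPM, the lowest level of the 6 groups. Panc89 Holoclone cells had 142, 134 and 135 TPM of YAP1, and Panc89 Paraclone cells had 107, 126 and 107 TPM. Both Holoclone groups stood above every other library, and parental Panc89 stood below every other library, while the 3 groups in between overlapped.

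WWTR1 (chr3:149517235-149736714), which encodes the coactivator TAZ, separated the lines completely. Its level was 249, 251 and 251 TPM in parental Panc1, 222, 180 and 185 TPM in Panc1 Holoclone cells and 209, 223 and 247 TPM in Panc1 Paraclone cells. In Panc89 it was 61.0, 78.4 and 61.7 TPM in parental, 82.5, 49.8 and 42.3 TPM in Holoclone and 72.3, 101 and 69.0 TPM in Paraclone cells. The 3 Panc89 groups overlapped each other, and the highest Panc89 library lay below the lowest Panc1 library. Within a library, the ratio of WWTR1 to YAP1 TPM had a median of 2.18 in parental Panc1, 1.24 in its Holoclone cells and 2.31 in its Paraclone cells. In Panc89 the same ratio had a median of 0.738 in parental, 0.373 in Holoclone and 0.677 in Paraclone cells. WWTR1 was thus the more abundant of the coactivator transcripts in all Panc1 libraries, and YAP1 in all Panc89 libraries except 1 parental library at a ratio of 1.02. WWTR1 shares 756 exon bases with the antisense gene WWTR1-AS1, which had at most 2.56 TPM in any library.

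TEAD1 (chr11:12674421-12944737), one of the 4 TEAD factors of the genome that carry YAP and TAZ to DNA, was lower in every Panc89 library than in any Panc1 library. It stood at 47.1, 32.5 and 55.2 TPM in parental Panc1, at 56.2, 68.5 and 64.3 TPM in Panc1 Holoclone cells and at 28.5, 22.3 and 25.1 TPM in Panc1 Paraclone cells. Parental Panc89 held 10.7, 9.52 and 10.4 TPM of TEAD1, Panc89 Holoclone cells 19.1, 14.4 and 13.6 TPM and Panc89 Paraclone cells 16.3, 16.4 and 13.2 TPM. The order within Panc1 was Holoclone, parental, Paraclone with no overlap, and in Panc89 both cloned lines overlapped above the parental cells.

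TEAD4 (chr12:2959330-3040676), another factor of the same family, varied less. It had 23.6, 31.5 and 28.2 TPM in parental Panc1, 27.8, 36.5 and 34.3 TPM in Panc1 Holoclone cells and 24.8, 16.6 and 16.1 TPM in Panc1 Paraclone cells. It had 30.8, 31.5 and 28.8 TPM in parental Panc89, 46.9, 43.4 and 31.2 TPM in Panc89 Holoclone cells and 49.9, 48.6 and 44.2 TPM in Panc89 Paraclone cells. In the order of group means each group overlapped the next, from Panc89 Paraclone cells at the top to Panc1 Paraclone cells at the bottom. TEAD1 exceeded TEAD4 in every Panc1 library, with ratios of TPM between 1.03 and 2.02, and TEAD4 exceeded TEAD1 in every Panc89 library, with ratios of TEAD1 to TEAD4 between 0.299 and 0.436.

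CCN1 (chr1:85580761-85584589), which encodes the secreted matricellular protein CYR61, was the most abundant of the 10 transcripts in Panc1. Parental Panc1 had 1057, 529 and 1468 TPM, Panc1 Holoclone cells 730, 1312 and 1040 TPM and Panc1 Paraclone cells 935, 871 and 951 TPM of CCN1. Parental Panc89 had 93.6, 87.6 and 104 TPM, Panc89 Holoclone cells 131, 77.6 and 65.2 TPM and Panc89 Paraclone cells 49.3, 84.8 and 52.1 TPM. The cell variants overlapped within each line, except that Panc89 Paraclone cells lay below parental Panc89, and the lines did not overlap.

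CCN2 (chr6:131948176-131951372), which encodes the related secreted protein CTGF, had the widest range of the 10 genes, at 5.40 between its highest and lowest group mean on the log2 scale. Its level was 382, 101 and 656 TPM in parental Panc1, 520, 721 and 625 TPM in Panc1 Holoclone cells and 327, 306 and 422 TPM in Panc1 Paraclone cells. In Panc89, CCN2 was at 81.6, 56.5 and 109 TPM in parental, at 188, 102 and 62.8 TPM in Holoclone and at 8.73, 22.0 and 12.9 TPM in Paraclone cells. Panc89 Paraclone cells stood below all other libraries, and parental Panc1 replicate 2 reached down into the range of the Panc89 parental and Holoclone cells. The ratio of CCN1 to CCN2 had a median of 4.04 in Panc89 Paraclone cells and of 0.762 in Panc89 Holoclone cells, with no overlap between them.

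An antisense gene lies across CCN2. CCN2 shares 278 exon bases with LINC01013 on the opposite strand, which was looked at after the values of CCN2 were seen. LINC01013 had 62.6, 67.5 and 47.2 TPM in Panc89 Paraclone cells, where CCN2 was lowest. It had 15.6, 5.33 and 7.96 TPM in Panc89 Holoclone cells and 8.41, 32.6 and 12.1 TPM in parental Panc89, and between 2.10 and 5.17 TPM in all Panc1 libraries. In Panc89 it fell in Holoclone against Paraclone cells by 2.60 on the log2 scale (SE 0.43, limma adjusted p = 0.000217). The library kit marked strand, but whether the quantification used strand is not given in the sources used here, so reads of the shared bases may not have been told apart. The part of LINC01013 in the CCN2 values was not tested.

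ANKRD1 (chr10:90912096-90921087), the gene of an ankyrin repeat protein best known from muscle and among the usual readouts of YAP activity, was at or near 1 TPM in most of the libraries. It had 1.14, 0.063 and 1.40 TPM in parental Panc1, 1.37, 7.28 and 2.81 TPM in Panc1 Holoclone cells and 0.121, 0.0766 and 0.149 TPM in Panc1 Paraclone cells. Parental Panc89 had 1.35, 1.17 and 1.63 TPM, Panc89 Holoclone cells 5.61, 1.13 and 0.454 TPM and Panc89 Paraclone cells 1.16, 1.13 and 1.29 TPM of ANKRD1. Panc1 Paraclone cells were low in all libraries, and parental Panc1 replicate 2 was lower still. The level in both Holoclone groups differed widely between passages.

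AMOTL2 (chr3:134355347-134375479), a target gene whose protein holds YAP at cell junctions, was higher in Panc89 than in Panc1 except among the Holoclone cells. Its values were 99.9, 64.6 and 107 TPM in parental Panc1, 131, 158 and 157 TPM in Panc1 Holoclone cells and 65.8, 59.4 and 66.6 TPM in Panc1 Paraclone cells. They were 293, 201 and 300 TPM in parental Panc89, 94.7, 150 and 229 TPM in Panc89 Holoclone cells and 353, 191 and 278 TPM in Panc89 Paraclone cells. The Panc89 Holoclone libraries were spread from within the range of the Panc1 cells to within that of the other Panc89 cells.

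LATS2 (chr13:20973036-21061586), the kinase that inactivates YAP and TAZ and is itself a target gene, was the least abundant after ANKRD1. It was at 13.2, 10.2 and 15.2 TPM in parental Panc1, at 17, 15.9 and 19.8 TPM in Panc1 Holoclone cells and at 7.97, 9.26 and 9.59 TPM in Panc1 Paraclone cells. Parental Panc89 had 9.15, 7.77 and 7.57 TPM of LATS2, Panc89 Holoclone cells 8.06, 7 and 7.81 TPM and Panc89 Paraclone cells 15.5, 9.92 and 11.9 TPM. The Holoclone cells were the highest group in Panc1, above all its other libraries, and had the lowest mean in Panc89, where they overlapped the parental cells.

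AJUBA (chr14:22971177-22982551), whose protein binds LATS kinases at junctions under tension and limits their activity, was highest in the Holoclone cells of both lines. Parental Panc1 had 48.0, 33.8 and 52.0 TPM, Panc1 Holoclone cells 53.4, 76.6 and 68.6 TPM and Panc1 Paraclone cells 27.0, 29.3 and 28.8 TPM. AJUBA reached 85.0, 109 and 114 TPM in Panc89 Holoclone cells, against 35, 26.3 and 34.1 TPM in parental and 37.7, 25.1 and 33.3 TPM in Paraclone cells. No other library of the series came as high as the 3 Panc89 Holoclone libraries.

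**Figure D1:**
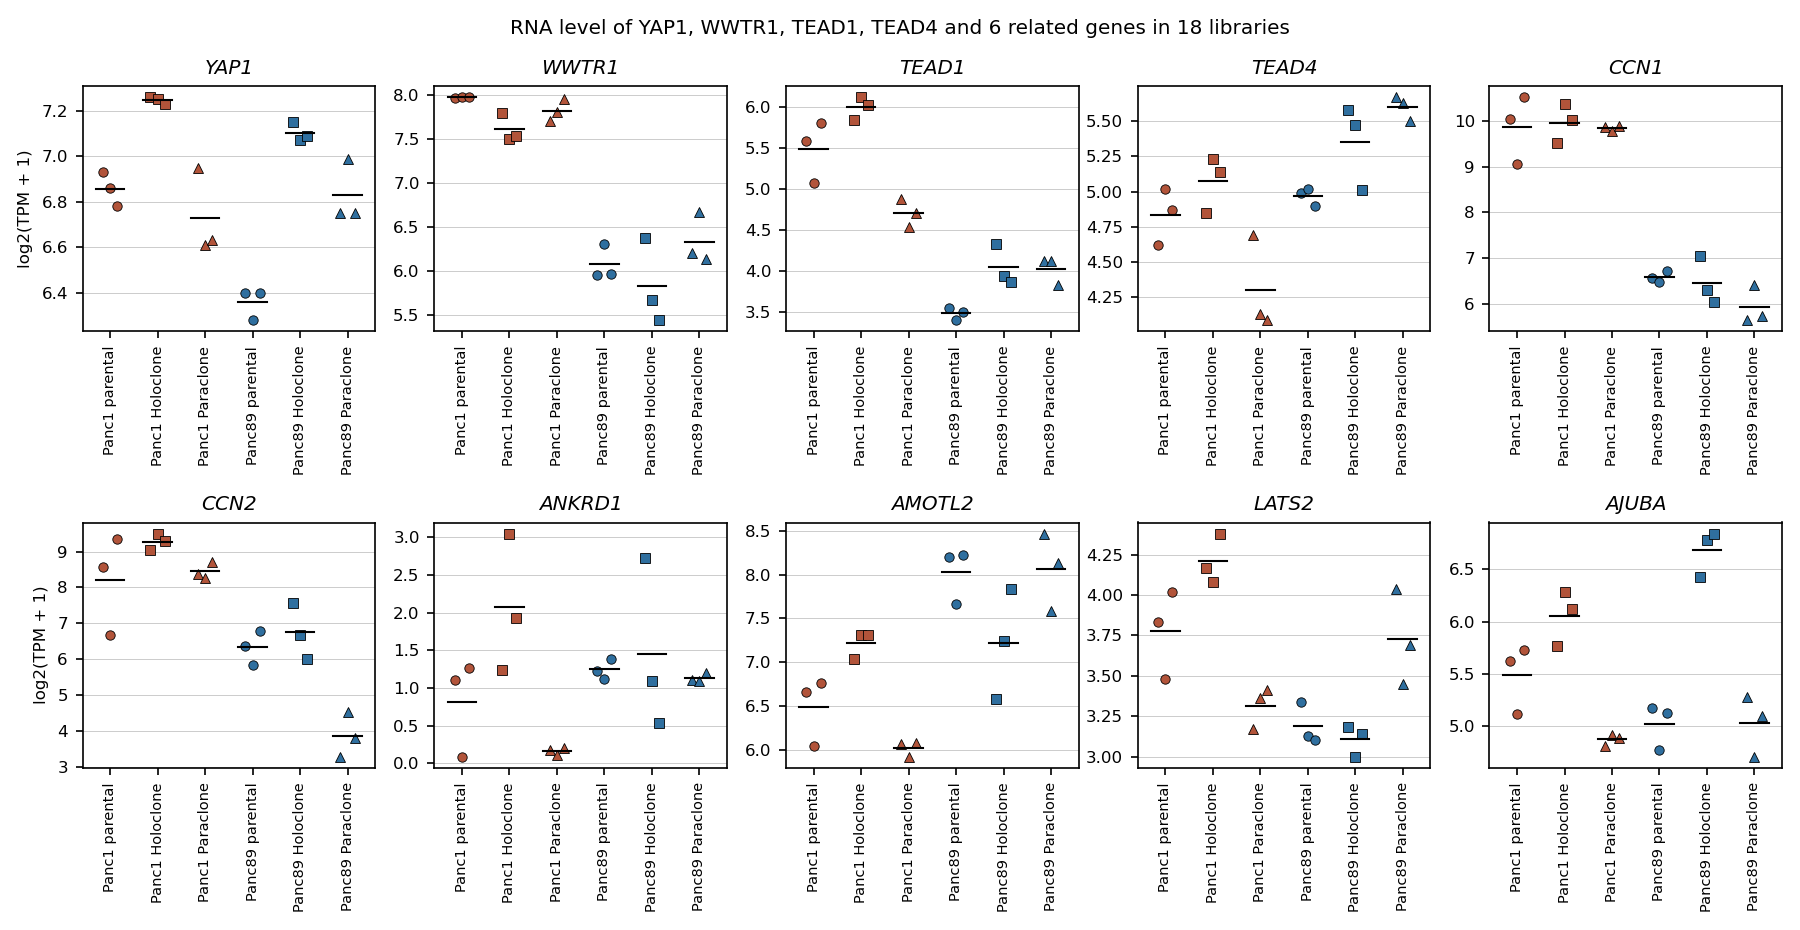
Level of each gene as log2(TPM + 1) on the vertical axis, with an axis of its own for each gene, in the 6 groups on the horizontal axis. Points are libraries (circles parental, squares Holoclone, triangles Paraclone, red Panc1, blue Panc89) and bars are means of 3. WWTR1, TEAD1 and CCN1 separate the lines, CCN2 is lowest in Panc89 Paraclone cells at 8.73 to 22.0 TPM, and AJUBA is highest in Panc89 Holoclone cells at 85.0 to 114 TPM.

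By group mean, 6 of the 10 genes were highest in Panc1 Holoclone cells, namely YAP1, TEAD1, CCN1, CCN2, ANKRD1 and LATS2. With median-of-ratios scaling, which sets the typical gene equal between libraries, this held for 4, and YAP1 and CCN1 were then highest in Panc89 Holoclone and Panc1 Paraclone cells. Panc1 Paraclone cells were lowest in 4 genes under both scalings, namely TEAD4, ANKRD1, AMOTL2 and AJUBA. In 4 of the 6 groups a single library was the lowest or the highest in 7 or more of the 10 genes. In parental Panc1, replicate 2 was the lowest of the 3 libraries in 7 of the 10 genes and replicate 3 the highest in 8, against 35.7% and 19.7% of all tested genes. In Panc1 Holoclone cells replicate 1 was the lowest in 7 and replicate 2 the highest in 7, against 26.8% and 32.9% of all tested genes. In Panc89, parental replicate 2 was the lowest in 7, against 51.0%, and Holoclone replicate 1 the highest in 8, against 58.5%.

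To compare the lines, each Panc89 cell variant was set against its Panc1 counterpart. WWTR1, TEAD1, CCN1 and CCN2 were lower in Panc89 in all 3 comparisons, and the largest of these differences was that of CCN2 in Paraclone cells, at 23.9-fold. AMOTL2 went the other way in the parental and Paraclone cells. In the parental cells 8 of the 10 genes were called, 1 higher and 7 lower in Panc89. Of all tested genes 66.0% were called there, 27.5% higher and 38.5% lower, so that the share called among the 10 was near that of all genes and the share of lower genes was above it. The median over the 10 genes was -0.54, against -0.18 over all tested genes.

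Among the parental cells, CCN1 fell by 3.29 on the log2 scale in Panc89 (SE 0.33, limma adjusted p = 3.36e-07), which is 9.76-fold. TEAD1 fell by 2.01 (SE 0.18, adjusted p = 6.58e-08) and WWTR1 by 1.90 (SE 0.20, adjusted p = 5.65e-07), with all Panc89 libraries below all Panc1 libraries. CCN2 fell by 1.87 (SE 0.54, adjusted p = 0.00626), although its libraries overlapped at Panc1 replicate 2. YAP1 and LATS2 fell by less, at 0.49 and 0.58. AJUBA was called at -0.46 (SE 0.19, adjusted p = 0.0425), with overlapping libraries. Its call was lost without Panc1 replicate 1 (-0.40, adjusted p = 0.125) or 3 (-0.34, adjusted p = 0.168) and without Panc89 replicate 2 (-0.34, adjusted p = 0.173) or 3 (-0.52, adjusted p = 0.0525). AMOTL2 was the only one of the 10 that rose, by 1.55 (SE 0.29, adjusted p = 0.000188). TEAD4 (0.13, 95% confidence interval -0.24 to 0.51) and ANKRD1 (0.43, interval -0.59 to 1.46) were not called. Median-of-ratios scaling moved the median of all genes to 0.02 and the share of higher genes among those called from 41.6% to 51.8%. AJUBA was not called under either scaling (-0.30 and -0.22, adjusted p = 0.228 and 0.396), nor was LATS2 with median-of-ratios scaling (-0.36, adjusted p = 0.0964).

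Between the Holoclone cells, 6 of the 10 were called, 1 higher and 5 lower in Panc89, against 65.8% of all tested genes called, 29.3% higher and 36.4% lower. The median over the 10 was -0.86, against -0.11 over all tested genes. CCN1 fell by 3.50 and CCN2 by 2.52 (adjusted p = 0.00067), and TEAD1 and WWTR1 fell by 1.95 and 1.78. LATS2 fell by 1.10 (SE 0.16, adjusted p = 2.24e-05). AJUBA rose by 0.63 (SE 0.19, adjusted p = 0.00871), which was lost without Panc1 Holoclone replicate 1 (0.48, adjusted p = 0.0515). YAP1 was at -0.14 (interval -0.36 to 0.07) with all Panc89 libraries lower, TEAD4 at 0.28 (interval -0.09 to 0.66) and ANKRD1 at -0.62 (interval -1.65 to 0.40). AMOTL2 was at 0.00 (interval -0.61 to 0.61). Without Panc89 Holoclone replicate 3 TEAD4 was called (0.45, adjusted p = 0.036), as it was under both scalings (0.39 and 0.46), and without replicate 1 ANKRD1 was called (-1.26, adjusted p = 0.0142).

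Between the Paraclone cells, 7 of the 10 were called, 3 higher and 4 lower in Panc89, against 60.7% of all tested genes called, 30.2% higher and 30.4% lower. The medians were 0.12 and 0.00. CCN2 fell by 4.58 (SE 0.54, adjusted p = 2.09e-06) and CCN1 by 3.91 (SE 0.33, adjusted p = 4.98e-08). WWTR1 fell by 1.5 and TEAD1 by 0.69 (adjusted p = 0.0031). AMOTL2 rose by 2.04 (SE 0.29, adjusted p = 1.4e-05), TEAD4 by 1.29 (SE 0.18, adjusted p = 1.04e-05) and LATS2 by 0.42 (SE 0.16, adjusted p = 0.0379). The LATS2 call was lost when Panc1 Paraclone replicate 1 (0.34, adjusted p = 0.124) or 2 (0.44, adjusted p = 0.0625) or Panc89 Paraclone replicate 1 (0.26, adjusted p = 0.196) or 3 (0.44, adjusted p = 0.0657) was left out, and with upper quartile scaling (0.40, adjusted p = 0.0692). ANKRD1 was higher in all 3 Panc89 libraries but was not called (0.97, adjusted p = 0.0929), and it was called with a pseudocount of 0.1 TPM (2.60, adjusted p = 0.0135). With only these groups fitted, ANKRD1 was called (0.97, adjusted p = 0.000221) and LATS2 was not (0.42, adjusted p = 0.104). YAP1 (0.10, interval -0.12 to 0.31) and AJUBA (0.15, interval -0.25 to 0.56) were not called.

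**Figure D2:**
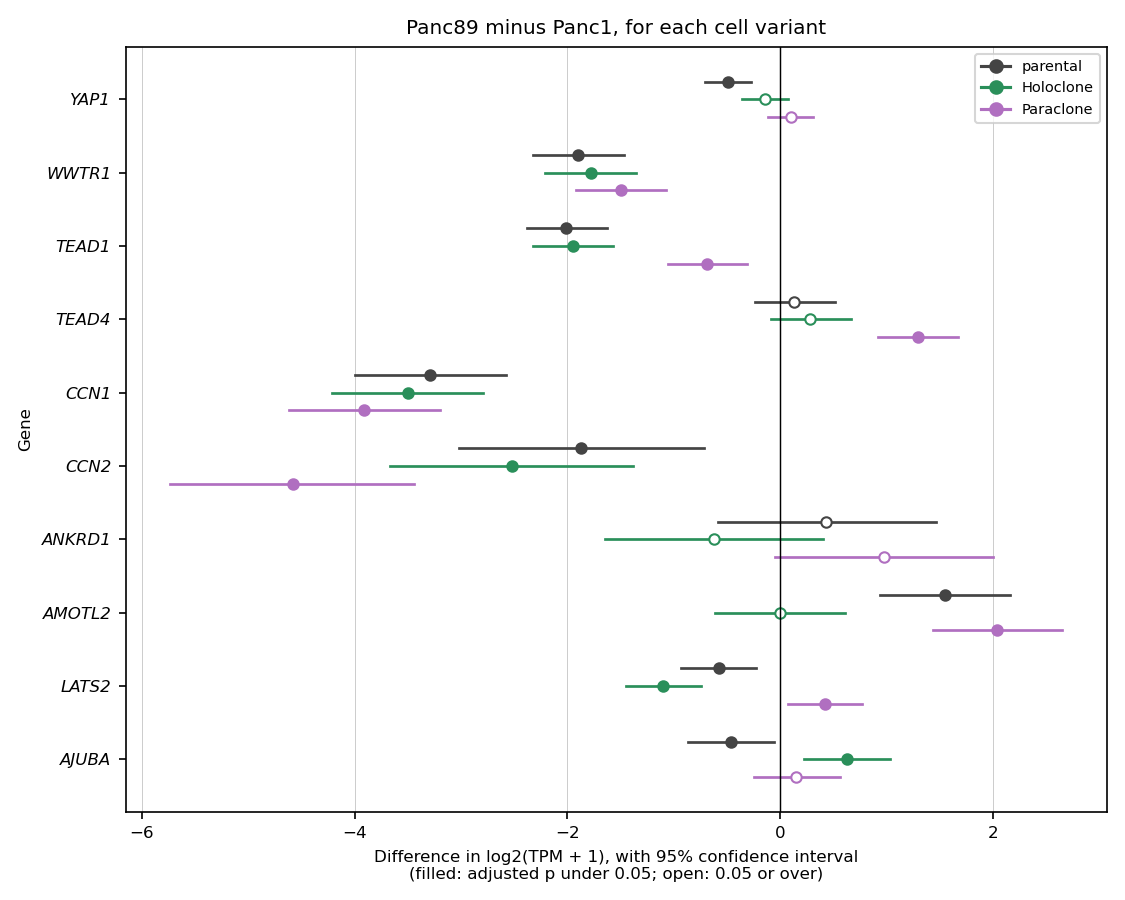
Difference of Panc89 from Panc1 in log2(TPM + 1) on the horizontal axis for the 10 genes on the vertical axis, in parental (grey), Holoclone (green) and Paraclone (purple) cells. Points are differences of means of 3 libraries, lines are 95% confidence intervals and filled points passed the threshold. CCN1 lies between -3.91 and -3.29 in all 3 comparisons, and CCN2 goes from -1.87 in parental to -4.58 in Paraclone cells.

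The comparison of Holoclone with Paraclone cells asks how the cloned variants of a line differ. In Panc1, 7 of the 10 genes were called and all 7 were higher in the Holoclone cells, against 37.3% of all tested genes called, 27.4% higher and 9.97% lower. The 7 were YAP1, both TEAD factors, ANKRD1, AMOTL2, LATS2 and AJUBA, and none of their libraries overlapped. The median over the 10 genes was 0.86 and that over all tested genes 0.19. Both other scalings brought the all-gene median to 0.01 or less and the share of higher genes among those called from 73.3% to 51.3% with upper quartile and to 47.7% with median-of-ratios scaling. The 7 genes were called as higher under both.

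ANKRD1 rose most in Panc1 Holoclone cells, by 1.92 on the log2 scale (SE 0.48, limma adjusted p = 0.00535), at a level of 7.28 TPM or less. TEAD1 rose by 1.28 (SE 0.18, adjusted p = 3.94e-05), AMOTL2 by 1.20 (SE 0.29, adjusted p = 0.00372) and AJUBA by 1.18 (SE 0.19, adjusted p = 0.000177). LATS2 rose by 0.90 (SE 0.16, adjusted p = 0.00049), TEAD4 by 0.77 (SE 0.18, adjusted p = 0.00285) and YAP1 by 0.52 (SE 0.10, adjusted p = 0.000824). With median-of-ratios scaling YAP1 was at 0.24 (adjusted p = 0.0357) and TEAD4 at 0.50 (adjusted p = 0.0314). CCN2 was higher in all Panc1 Holoclone libraries but was not called (0.82, adjusted p = 0.258). With only these groups fitted, CCN2 was called as higher (0.82, adjusted p = 0.0174). CCN1 was at 0.12 (interval -0.59 to 0.83), with its sign turned by both scalings. WWTR1 was at -0.21 (adjusted p = 0.448), and was called as lower with median-of-ratios scaling (-0.49, adjusted p = 0.0401).

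In Panc89, 5 of the 10 genes were called between Holoclone and Paraclone cells, 3 higher and 2 lower in the Holoclone cells, against 35.7% of all tested genes called, 22.4% higher and 13.3% lower. The medians were 0.15 over the 10 and 0.09 over all tested genes. CCN2 rose by 2.88 on the log2 scale (SE 0.54, limma adjusted p = 0.000639), or 7.36-fold, and AJUBA rose by 1.66 (SE 0.19, adjusted p = 7.24e-06), or 3.15-fold. Both were called under all alternatives tried and whichever library was left out. The share of higher genes among all those called went from 62.8% to 52.5% with upper quartile and to 49.3% with median-of-ratios scaling. LATS2 fell by 0.62 (SE 0.16, adjusted p = 0.00776) with no overlap of libraries. AMOTL2 fell by 0.84 (SE 0.29, adjusted p = 0.0317), although Holoclone replicate 3 overlapped the Paraclone cells. Without Holoclone replicate 1 AMOTL2 was at -0.52 (adjusted p = 0.155), without Paraclone replicate 1 at -0.63 (adjusted p = 0.143), and without Holoclone replicate 2 (-0.85, adjusted p = 0.0695) or Paraclone replicate 3 (-0.80, adjusted p = 0.0849) its call was lost as well.

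YAP1 was called at 0.27 in this comparison (SE 0.10, adjusted p = 0.045), and the call was lost without any of 5 of the 6 libraries (0.23 to 0.29, adjusted p = 0.0781 to 0.154), the exception being Paraclone replicate 2. Upper quartile scaling put YAP1 at 0.17 (adjusted p = 0.1) and median-of-ratios scaling at 0.14 (adjusted p = 0.227). WWTR1 was at -0.50 (adjusted p = 0.0636), and was called as lower without Holoclone replicate 1 (-0.78, adjusted p = 0.00166) and under both scalings (-0.61 and -0.64). TEAD1 (0.03, interval -0.35 to 0.40), TEAD4 (-0.24, interval -0.62 to 0.13), CCN1 (0.53, interval -0.18 to 1.24) and ANKRD1 (0.32, interval -0.71 to 1.35) were not called. With the 6 libraries of these groups fitted alone, 2 of the 10 genes were called, CCN2 and AJUBA.

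**Figure D3:**
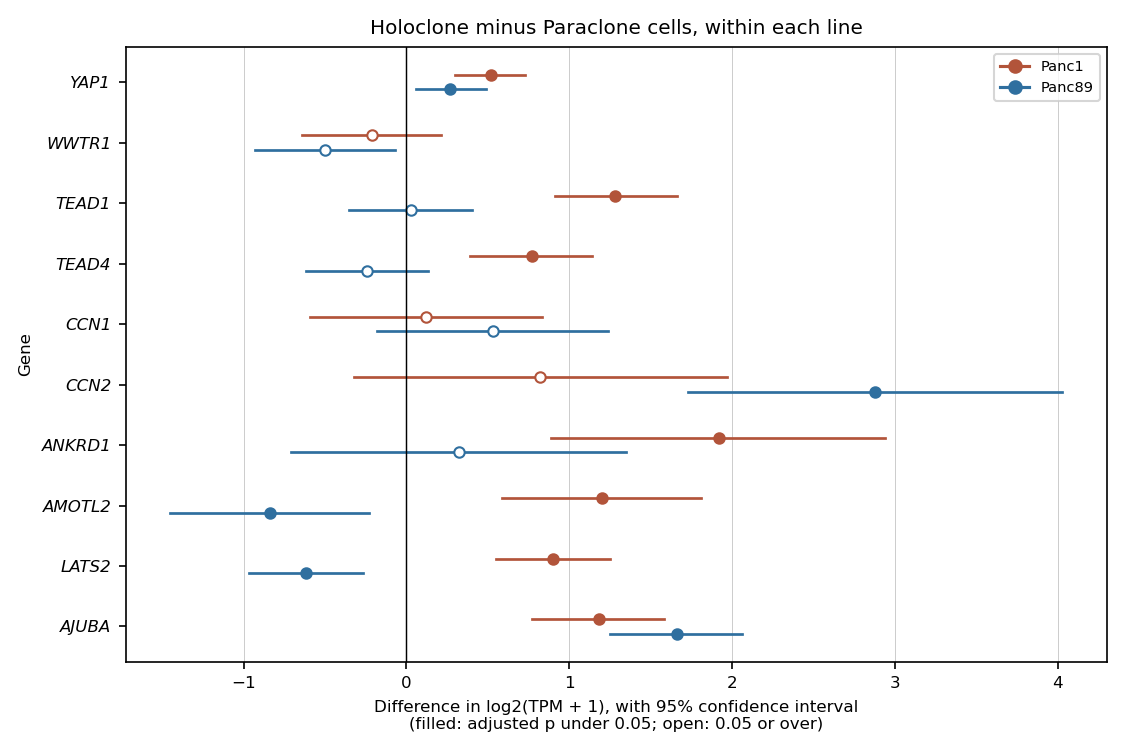
Difference of Holoclone from Paraclone cells in log2(TPM + 1) on the horizontal axis for the 10 genes on the vertical axis, in Panc1 (red) and Panc89 (blue). Points are differences of means of 3 libraries, lines are 95% confidence intervals and filled points passed the threshold. AMOTL2 and LATS2 lie on opposite sides of 0 in the 2 lines, at 1.20 and 0.90 in Panc1 and at -0.84 and -0.62 in Panc89, while AJUBA is higher in Holoclone cells of both, at 1.18 and 1.66.

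Whether the Holoclone against Paraclone difference itself differed between the lines was tested as an interaction. It was called for 5 of the 10 genes, against 35.1% of all tested genes. The difference was lower in Panc89 for AMOTL2, by 2.04 (SE 0.40, limma adjusted p = 0.00107), for LATS2, by 1.52 (SE 0.23, adjusted p = 0.000118), for TEAD1, by 1.26 (SE 0.25, adjusted p = 0.00104), and for TEAD4, by 1.01 (SE 0.25, adjusted p = 0.00514). It was higher in Panc89 for CCN2, by 2.06 (SE 0.76, adjusted p = 0.047). The CCN2 call was lost without any library of the 4 groups except Panc89 Holoclone replicate 3 and Panc89 Paraclone replicate 2, at 1.65 to 2.17 with adjusted p between 0.0599 and 0.109. AJUBA was at 0.48 (interval -0.10 to 1.05) and YAP1 at -0.24 (interval -0.55 to 0.06), which was called without Panc1 Paraclone replicate 1 (-0.35, adjusted p = 0.0415). WWTR1 (-0.29, interval -0.89 to 0.31) and CCN1 (0.41, interval -0.59 to 1.41) were not called. ANKRD1 was at -1.60 (adjusted p = 0.0823), and was called without Panc89 Holoclone replicate 1 (-2.23, adjusted p = 0.00525) or Panc1 Holoclone replicate 1 (-2.01, adjusted p = 0.0339) and with a pseudocount of 0.1 TPM (-3.60, adjusted p = 0.0277).

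Against the parental cells, which are the same 3 libraries for both cloned lines of a line, between 1 and 5 of the 10 genes were called. In Panc1 Holoclone cells YAP1 alone was called, as higher by 0.39 (SE 0.10, adjusted p = 0.0187), against 10.9% of all tested genes. In Panc1 Paraclone cells 4 were called, against 28.6% of all tested genes, and all 4 were lower: TEAD1 by 0.78 (adjusted p = 0.00392), AJUBA by 0.61, TEAD4 by 0.53 and LATS2 by 0.47. Under either scaling only TEAD1 of these was called, and the share of higher genes among all those called went from 25.6% to 47.4% with upper quartile and to 53.0% with median-of-ratios scaling. In Panc89 Holoclone cells 3 were called, against 24.7% of all tested genes, all higher: AJUBA by 1.66 (SE 0.19, adjusted p = 1.16e-05), YAP1 by 0.74 (SE 0.10, adjusted p = 5.93e-05) and TEAD1 by 0.56 (adjusted p = 0.0284). TEAD1 was at 0.47 there under both scalings and was not called (adjusted p = 0.0554 and 0.0551), and the share of higher genes among those called went from 65.2% to 51.3% and 51.0%. In Panc89 Paraclone cells 5 were called, against 19.4% of all tested genes. CCN2 fell there by 2.47 (SE 0.54, adjusted p = 0.004), while TEAD4, TEAD1, LATS2 and YAP1 rose by 0.63, 0.54, 0.54 and 0.47.

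Several of these calls were lost when a single library was left out. YAP1 in Panc1 Holoclone cells was not called without parental replicate 3 (0.35, adjusted p = 0.073) or without Holoclone replicate 1 (0.39, adjusted p = 0.0589) or 3 (0.40, adjusted p = 0.0597). In Panc1 Paraclone cells AJUBA and LATS2 each lost their call when any library but parental replicate 2 was left out (AJUBA -0.64 to -0.49, adjusted p = 0.0565 to 0.106, and LATS2 -0.51 to -0.35, adjusted p = 0.064 to 0.181). TEAD4 lost its call there without parental or Paraclone replicate 2 or 3 (-0.51 to -0.42, adjusted p = 0.0842 to 0.136). In Panc89 Holoclone cells TEAD1 was not called without any of the 3 parental libraries or Holoclone replicate 1 (0.42 to 0.60, adjusted p = 0.0557 to 0.105). In Panc89 Paraclone cells TEAD1 was not called without any of the 3 parental libraries or Paraclone replicate 1 or 2 (0.49 to 0.57, adjusted p = 0.0838 to 0.134), and LATS2 without parental replicate 2 or 3 or Paraclone replicate 1 or 3 (0.38 to 0.55, adjusted p = 0.0683 to 0.162). TEAD4 lost its call there without parental replicate 1 or 3 or Paraclone replicate 1 (0.59 to 0.64, adjusted p = 0.0546 to 0.0738). AJUBA and YAP1 in Panc89 Holoclone cells and CCN2 and YAP1 in Panc89 Paraclone cells were called whichever library was left out.

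The wider pathway was described with 3 lists of further genes. All 55 fold changes of single list genes given below kept their call and their sign under both other scalings. They are the 2 highest and 2 lowest called genes of each list in a comparison. A gene not named in a comparison may still differ there. Of 27 upstream regulators of the kinase chain 26 were tested, and DCHS1 was not. Between the lines more of these were lower in Panc89 than higher. The list was not split by whether a gene promotes or restrains the kinases, so its counts give no direction of pathway activity. The parental cells had 6 higher, 17 lower and 3 not called, and the Holoclone cells 7 higher, 16 lower and 3 not called. The Paraclone cells had 8 higher, 14 lower and 4 not called. Of all tested genes, 66.0%, 65.8% and 60.7% were called in these comparisons, with 38.5%, 36.4% and 30.4% lower. The medians were -0.73, -0.63 and -0.40, against -0.18, -0.11 and 0.00 over all tested genes. With median-of-ratios scaling 14, 14 and 13 of the regulators were lower in Panc89 and 7, 8 and 8 higher. With upper quartile scaling 15, 15 and 15 were lower and 7, 8 and 8 higher. WTIP, a relative of AJUBA, fell in all 3 comparisons, by 3.37, 4.79 and 2.85, from between 23.1 and 75.8 TPM in Panc1 to between 1.40 and 4.01 TPM in Panc89. NF2, the gene of the tumor suppressor merlin, fell by 2.33 in Holoclone and 2.38 in Paraclone cells, and WWC3, of the KIBRA family, by 2.43 in parental cells. NF2 was lower in parental Panc89 too, at 7.89 to 9.82 TPM against 45.1 to 54.5 TPM in parental Panc1. AMOTL1, a relative of AMOTL2, rose by 2.12, 3.15 and 4.33, and was at 0.123 TPM or less in Panc1 Paraclone cells against 52.3 to 64.4 TPM in Panc89 Holoclone cells. SAV1, the scaffold of the kinases, rose by 0.83 in parental cells, the kinase gene TAOK3 by 1.57 in Holoclone cells and WWC1, the gene of KIBRA, by 3.00 in Paraclone cells. TAOK3 was lower in Panc89 Paraclone cells, at 19.8 to 21.3 TPM against 34.6 to 38.9 TPM in Panc1 Paraclone cells.

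Between Holoclone and Paraclone cells, 12 of the 26 regulators were higher, 3 lower and 11 not called in Panc1, and 6 were higher, 6 lower and 14 not called in Panc89. Of all tested genes, 27.4% were called as higher and 9.97% as lower in Panc1, and 22.4% and 13.3% in Panc89. Under both other scalings the regulators in Panc1 numbered 10 higher and 4 lower. The medians were 0.37 and 0.02, against 0.19 and 0.09 over all tested genes. In Panc1 AMOTL1 rose by 2.58 and WWC1 by 1.61 in the Holoclone cells, while AMOT, the founding member of the family of AMOTL2, and TAOK3 fell by 1.24 and 1.17. In Panc89 WWC1 fell by 1.40 and WWC2 by 0.64, while FRMD6 rose by 1.64 and the giant cadherin gene FAT1 by 1.42. WWC1 was therefore called in both lines in opposite directions, at 13.1 to 14.9 TPM in Panc1 Holoclone cells against 3.43 to 4.73 TPM in Panc1 Paraclone cells, and at 12.2 to 15.6 TPM against 32.8 to 48.1 TPM in Panc89.

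Of 6 further partners of DNA binding 5 were tested, namely TEAD2, TEAD3, VGLL1, VGLL3 and VGLL4. TEAD3 rose in Panc89 against Panc1 by 1.45, 1.3 and 1.57 in parental, Holoclone and Paraclone cells, from at most 13.0 TPM in Panc1 to at least 24.9 TPM in Panc89. TEAD2 fell by 0.58 in parental and 0.52 in Paraclone cells, and VGLL4, a competitor of YAP for TEAD, fell by 0.63 in Holoclone cells. VGLL1 was listed at 0 in all parental and Holoclone Panc1 libraries and was called as higher in Panc89 in all 3 comparisons, at 0.401 to 3.62 TPM. VGLL3 rose by 0.63 in parental and 1.76 in Paraclone cells. Its level was at most 0.205 TPM in parental Panc1 against 0.489 to 1.08 TPM in parental Panc89. In Paraclone cells it was at most 0.395 TPM in Panc1 against 2.39 to 3.59 TPM in Panc89. Between Holoclone and Paraclone cells, VGLL4 rose by 0.77 and TEAD2 fell by 0.44 in Panc1, and VGLL1 rose by 1.36 and VGLL3 fell by 1.43 in Panc89. The 4 TEAD genes thus did not move together between the lines, since TEAD1 was lower in Panc89 and TEAD3 higher in all 3 comparisons, under the deposited scale and both other scalings.

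All 17 further genes known as targets of YAP and TAZ were tested. Between the lines, 4 were higher, 12 lower and 1 not called in parental Panc89, 2 higher, 12 lower and 3 not called in the Holoclone cells and 4 higher, 10 lower and 3 not called in the Paraclone cells. Of all tested genes, 38.5%, 36.4% and 30.4% were called as lower in these comparisons and 27.5%, 29.3% and 30.2% as higher. The medians of the list were -1.36, -0.82 and -1.54, against -0.18, -0.11 and 0.00 over all tested genes. With median-of-ratios scaling 10, 11 and 10 of the targets were lower in Panc89 and 4, 4 and 4 higher. With upper quartile scaling 10, 11 and 11 were lower and 4, 3 and 4 higher. AXL, a receptor tyrosine kinase, fell by 4.49 in parental and 3.67 in Holoclone cells, and CRIM1, a transmembrane binder of BMP ligands, fell by 3.46, 3.83 and 3.59. AXL was lower in Panc89 Paraclone cells too, at 22.2 to 40.5 TPM against 75.7 to 123 TPM in Panc1 Paraclone cells. FOXF2, a transcription factor gene, fell by 2.35 in Paraclone cells. It was also lower in parental Panc89, at 3.99 to 5.01 TPM against 14.8 to 22.8 TPM in parental Panc1. In Panc89 Holoclone cells it had 4.68 to 6.31 TPM, against 18.4 to 20.3 TPM in Panc1 Holoclone cells. F3, the gene of tissue factor that starts blood clotting, moved opposite to most of the list. It rose by 6.21, 7.02 and 6.58, from between 1.12 and 6.39 TPM in Panc1 to between 156 and 813 TPM in Panc89. IGFBP3, a binder of insulin-like growth factors, rose by 3.60 in parental cells, and CCDC80, a secreted matrix protein gene, by 2.01 in Holoclone and 1.39 in Paraclone cells. IGFBP3 went the other way in the cloned lines. It had 4.32 to 4.98 TPM in Panc89 against 5.63 to 11.7 TPM in Panc1 Holoclone cells. In Paraclone cells it had 10.7 to 11.7 TPM in Panc89 against 32.2 to 40.6 TPM in Panc1.

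Between Holoclone and Paraclone cells, 8 of the 17 targets were higher, 4 lower and 5 not called in Panc1, with a median of 0.50 against 0.19 over all tested genes, and with 5 higher and 4 lower under both other scalings. In Panc89, 5 were higher, 5 lower and 7 not called, with a median of 0.01 against 0.09 over all tested genes. The shares of all genes called are those given for the regulators. In Panc1 ARHGEF17 rose by 1.79 and RBMS3, an RNA-binding protein gene, by 1.38, while IGFBP3 fell by 1.86 and F3 by 1.39. In Panc89 FJX1 rose by 2.05 and CCDC80 by 1.97, while NT5E, the gene of the surface enzyme CD73, fell by 2.22 and AXL by 1.40. NT5E had 143 to 237 TPM in Panc89 Paraclone cells against 31.7 to 44.8 TPM in Panc89 Holoclone cells. AXL had 22.2 to 40.5 TPM in Panc89 Paraclone cells against at most 10.2 TPM in Panc89 Holoclone cells. Both were therefore higher in the cells in which CCN2 was lower.

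**Figure D4:**
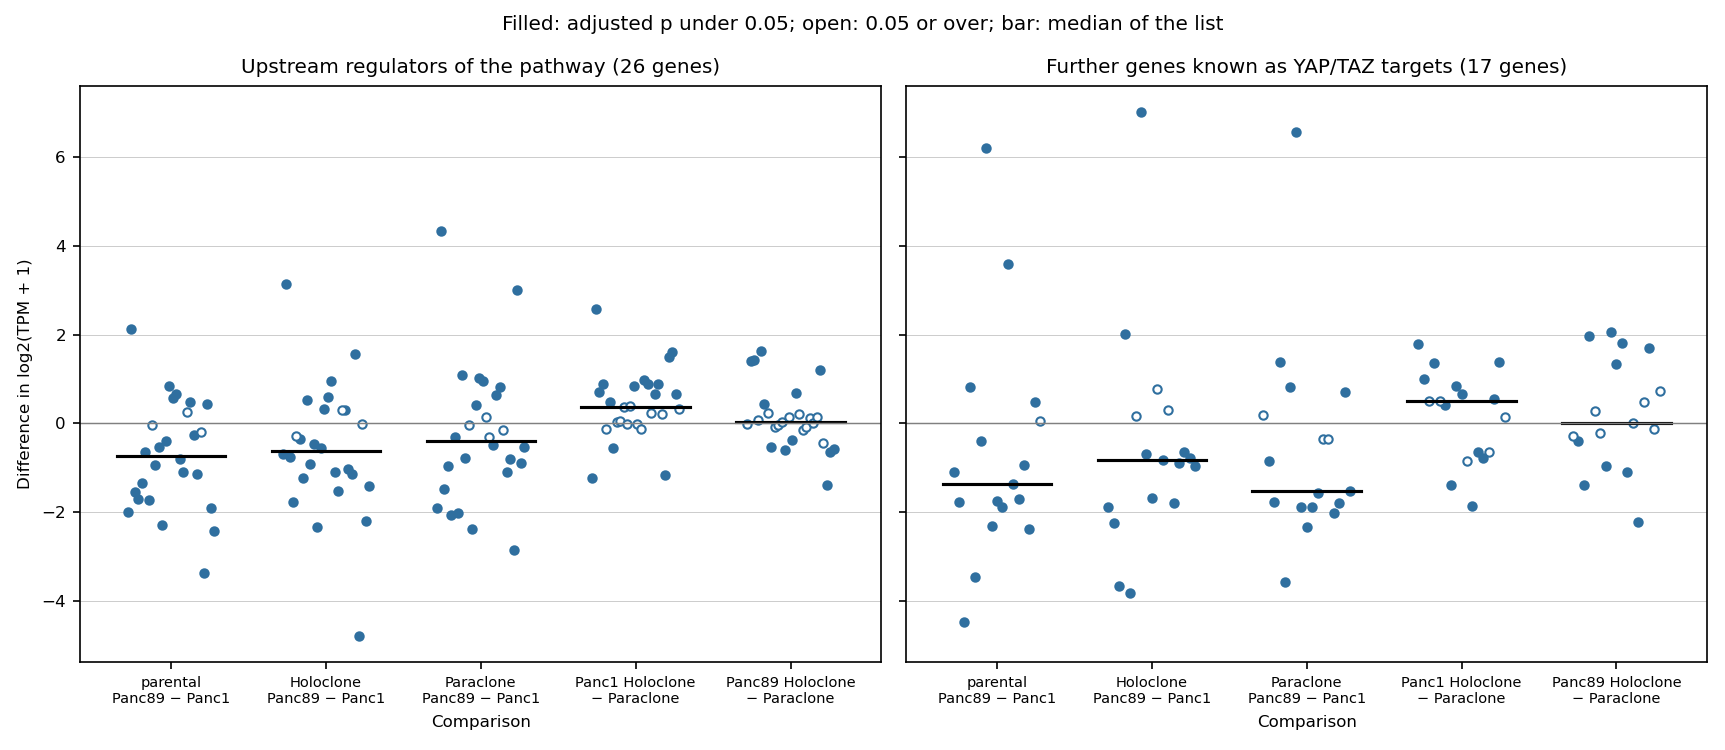
Difference in log2(TPM + 1) on the vertical axis for the 26 regulators (left) and 17 further targets (right) in the 5 comparisons on the horizontal axis. Points are genes in alphabetical order, filled where they passed the threshold, and bars are list medians. The target medians lie at -1.36, -0.82 and -1.54 between the lines, with F3 at 6.21, 7.02 and 6.58 above all other genes.

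The genes most like WWTR1, TEAD1 and CCN2 were sought by the root mean square difference of the 6 group means on the log2 scale after each gene was centred on its own mean. Each of these genes had the widest range of group means in its role, at 2.14, 2.51 and 5.40. Closest to WWTR1 were CRAT (0.06), PDZD11 (0.09) and SOX9-AS1 (0.10), and closest to TEAD1 were SBDSP1 (0.11), PIK3CB (0.12) and EFCAB13 (0.14). Closest to CCN2 were ZP3 (0.41), MUC3A (0.47) and PFN2 (0.47). The measure is not scaled to the range of a gene, which was wider for CCN2. Its distances are therefore not comparable with those of WWTR1 and TEAD1. The 6 points of each comparison share the 18 libraries, and no p is given.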

How the data were processed

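RNA of Panc1 and Panc89 parental, Holoclone and Paraclone cells was isolated from 3 passages each and sequenced by the authors with a stranded mRNA kit. They estimated transcript levels with kallisto 0.46.1 against Ensembl transcripts of GRCh38, and summed them to genes as scaled TPM. The authors deposited them as log2 values of TPM plus 1, per the labels and the values themselves. The kallisto strand setting is not given in the sources used here. Since deposited log2 TPM hold no counts, limma 3.58.1 in R 4.3.3 was used where the authors' methods name a count model.

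The model fitted 6 group means to 18 libraries over the 16093 genes that reached 1 TPM in 3 or more libraries, with eBayes and a trend, and two-sided p-values adjusted over all genes tested (threshold 0.05). Figures were drawn with matplotlib 3.10.9. Alternatives were a pseudocount of 0.1 TPM, no filter, the groups compared alone, upper quartile and median-of-ratios scaling, no mitochondrially encoded genes, no trend, a replicate block and leaving out each library. All 10 members were named in every comparison except those against parental cells, where the called members were named. Of each pathway list, the 2 highest and 2 lowest called genes were named in the comparisons between lines and between Holoclone and Paraclone cells, and for the member with the widest range in each role the 3 genes of most like pattern. The members and lists were chosen with earlier results of these data known.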

Additional observations from a re-analysis of the deposited data

Results flagged for a closer look

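The Holoclone against Paraclone difference was itself different between the lines for 5 of the 10 genes, by the interaction term of limma with adjusted p over all tested genes. Each value is the difference in Panc89 minus that in Panc1, in log2(TPM + 1). TEAD1 was at -1.26 (SE 0.25, adjusted p = 0.00104), with 1.28 in Panc1 and 0.03 in Panc89. TEAD4 was at -1.01 (SE 0.25, adjusted p = 0.00514), with 0.77 and -0.24. AMOTL2 was at -2.04 (SE 0.40, adjusted p = 0.00107), with 1.20 and -0.84, and LATS2 was at -1.52 (SE 0.23, adjusted p = 0.000118), with 0.90 and -0.62, so that both were called in opposite directions in the lines. With the groups compared alone, neither AMOTL2 (adjusted p = 0.176) nor LATS2 (adjusted p = 0.0782) was called in Panc89. The Panc89 AMOTL2 call was also lost in 4 of 6 fits that left out 1 library. CCN2 was at 2.06 (SE 0.76, adjusted p = 0.047), with 0.82 and 2.88. This CCN2 call was lost in 10 of 12 fits that left out 1 library, and without a filter (adjusted p = 0.0923). As each cloned line is 1 clone, the line and the clone picked from it cannot be told apart.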

How the results depend on the processing

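Of the 73 member fold changes given, 71 kept their direction and side of the threshold with a pseudocount of 0.1 TPM, 66 without a filter, 60 with the groups compared alone, 62 with upper quartile and 60 with median-of-ratios scaling, 71 without mitochondrially encoded genes and 72 without a trend. Values against parental cells that were not called are not among the 73, so calls gained there are not counted. AMOTL2 in Panc89 Holoclone cells was 1 of these, and it was called with upper quartile scaling (-0.92, adjusted p = 0.0441). Leaving out 1 library kept 424 of 498 values, and 61 lost their call, 6 gained one and 7 changed sign. The 4 genes called in Panc1 Paraclone against parental Panc1 became 2 without a filter, 0 with the groups alone and 1 with either scaling. The 5 called in Panc89 Holoclone against Paraclone cells became 2 with the groups alone. When single libraries were left out, the count called ranged from 0 to 1 for Panc1 Holoclone and from 1 to 3 for Panc1 Paraclone against parental cells, from 2 to 5 for Panc89 Holoclone and from 2 to 4 for Panc89 Paraclone against parental cells, and from 3 to 5 for Panc89 Holoclone against Paraclone cells. Uncalled values changed sign for CCN1 in Panc1 Holoclone against Paraclone cells (-0.13 with upper quartile, -0.15 with median-of-ratios scaling), TEAD1 in Panc89 Holoclone against Paraclone cells (-0.08 and -0.11), YAP1 between the Holoclone cells (0.04 with median-of-ratios scaling) and AMOTL2 between the Holoclone cells (-0.01 without mitochondrially encoded genes). Leaving out single libraries gave -0.31 to 0.32 for AMOTL2 between the Holoclone cells, -0.08 to 0.35 for CCN1 in Panc1, and -0.32 to 0.77 for ANKRD1 and -0.12 to 0.11 for TEAD1 in Panc89 Holoclone against Paraclone cells. The causes were not tested. The order of groups kept at least 4 of 6 places for 8 of 10 genes under median-of-ratios scaling.

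Same-numbered libraries of a line did not deviate together (18 pairs, r from -0.318 to 0.190, mean -0.0418, 3 over 0.1). The main model used no pairing, and a weak shared effect could be missed by these correlations. A replicate block kept 68 of the 73 values and lost AJUBA between parental cells (adjusted p = 0.0595), YAP1 in Panc89 Holoclone against Paraclone cells (0.0697), the CCN2 interaction (0.0659), TEAD4 in Panc1 Paraclone (0.0558) and TEAD1 in Panc89 Paraclone against parental cells (0.0523).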
